A study of Arabidopsis thaliana with 9 samples.

Results

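The heat shock factors and chaperones described here are 38 genes of Arabidopsis thaliana, chosen by gene identifier from the 38202 gene rows of the count table. They comprise 15 small heat shock proteins, 6 large chaperones, 6 co-chaperones, 8 transcriptional regulators and 3 other targets of heat shock factors. RNA of leaves of the ecotype Columbia was sequenced after 6 days in MS medium, a plant culture medium. The labels name 3 agents with 3 libraries each. These are Ag+ (silver ions), AgNPs (silver nanoparticles) and CK, which was read as the group that received neither form of silver. No genotype other than the ecotype is given for any group, and neither the amount of silver nor the duration of exposure is stated. Libraries were made from pooled RNA, and whether libraries of a group stem from separate cultures is not stated. All p-values therefore reflect the spread among these libraries, part or all of which may be technical.

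Heat shock factors are transcription factors that bind heat shock elements, inverted repeats of the unit GAA, in the promoters of chaperone genes. Chaperones of the HSP70 and HSP90 families hold these factors inactive in unstressed cells, and unfolded proteins draw the chaperones away. Small heat shock proteins then bind unfolding proteins without using ATP, HSP70 and HSP90 refold them, and HSP101 pulls apart aggregates. In leaves the response is best known from heat, and heavy metals and oxidative stress also induce many of its genes.

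Heat shock elements were searched in a window from 250 bases before to 50 bases after the annotated gene start, on both strands, in the RefSeq genome and annotation TAIR10.1. An element of 3 units was either GAA-NN-TTC-NN-GAA or TTC-NN-GAA-NN-TTC (N is any base, hyphens for reading alone), and an element of 2 units, which every 3-unit element contains, was GAA-NN-TTC or TTC-NN-GAA. A 3-unit match was present in 9 of the 38 windows (23.7%) and in 132 of 27443 windows of all genes (0.481%). A 2-unit match was present in 24 of the 38 (63.2%) and in 5287 of all windows (19.3%). A match describes the letters only, and its use in these leaves was not measured.

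The 3-unit matches lay in the windows of HSP17.4 and HSFA7A, with 2 each, and of AT1G53540, HSP70, HOP3, HSFA2, HSFA7B, DREB2A and GOLS1. The 250 bases before the start are printed for 4 of them and for HSP18.2, to set beside the levels given further on. HSFA7A was the member called in a test, HSFA2 was high and HSP17.4 low in Ag+ 3, and DREB2A encodes a factor upstream of the response. HSP18.2, with no match in its window, did not follow the other genes. HSP90.1, ROF2 and MBF1C also had no match of either kind, and their libraries were ordered as for most heat shock genes. A link between matches and levels was not tested. Capitals mark 3-unit matches, and each sequence runs 5′ to 3′ on the strand of its gene and ends at the base before the annotated start.
HSFA7A, chr3:19264891-19265140, plus strand: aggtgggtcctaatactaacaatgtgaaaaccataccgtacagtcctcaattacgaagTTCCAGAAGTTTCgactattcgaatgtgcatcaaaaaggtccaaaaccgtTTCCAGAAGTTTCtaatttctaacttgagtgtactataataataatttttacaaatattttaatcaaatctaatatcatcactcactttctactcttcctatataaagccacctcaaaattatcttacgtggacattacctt
HSFA2, chr2:11135374-11135623, plus strand: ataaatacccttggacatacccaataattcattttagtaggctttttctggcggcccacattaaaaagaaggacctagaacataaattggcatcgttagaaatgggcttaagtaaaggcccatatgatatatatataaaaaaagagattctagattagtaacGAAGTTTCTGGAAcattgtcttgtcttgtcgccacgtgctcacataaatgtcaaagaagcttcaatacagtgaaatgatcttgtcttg
HSP17.4, chr3:16984868-16985117, minus strand: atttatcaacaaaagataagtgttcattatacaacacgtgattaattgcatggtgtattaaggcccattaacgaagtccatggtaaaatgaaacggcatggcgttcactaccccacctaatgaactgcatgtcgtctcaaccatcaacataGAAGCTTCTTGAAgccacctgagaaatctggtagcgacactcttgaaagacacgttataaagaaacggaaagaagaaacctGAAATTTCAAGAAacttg
DREB2A, chr5:1601955-1602204, plus strand: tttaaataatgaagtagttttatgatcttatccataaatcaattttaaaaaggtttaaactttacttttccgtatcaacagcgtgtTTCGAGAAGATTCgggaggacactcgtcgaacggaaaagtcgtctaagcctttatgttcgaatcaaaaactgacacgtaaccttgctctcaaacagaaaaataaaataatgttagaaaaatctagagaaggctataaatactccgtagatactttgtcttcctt
HSP18.2, chr5:24062073-24062322, plus strand: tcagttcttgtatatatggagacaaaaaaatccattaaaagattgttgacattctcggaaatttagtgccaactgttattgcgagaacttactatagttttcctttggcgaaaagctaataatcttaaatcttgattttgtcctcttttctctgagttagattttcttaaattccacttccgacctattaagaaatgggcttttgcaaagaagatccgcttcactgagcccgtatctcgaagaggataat

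The matches differed in their place. The HSFA2 match began 88 bases before the start and the nearer of the HSFA7A matches 142 bases before it, whereas the nearer HSP17.4 match began 18 bases before the start. The matches of HSP70 and HOP3 lay after the annotated start and are therefore not in the stretches upstream.

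**Figure D1:**
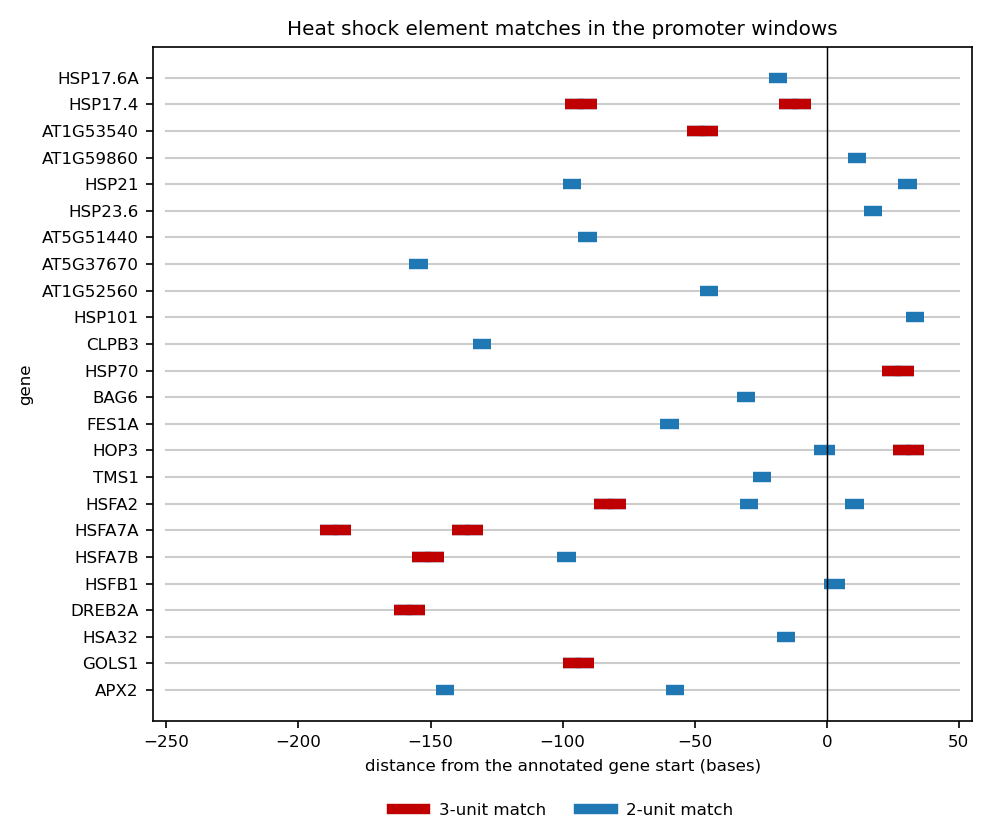
Positions of heat shock element matches (horizontal axis, bases from the annotated gene start) in the 24 of 38 windows that hold any, with 1 gene per line. Red bars are 3-unit matches and blue bars are 2-unit matches outside them. Of the 9 genes with a red bar, HSP70 and HOP3 carry it after the start.

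Libraries held between 16884010 and 19876151 counts, and the filter on low counts kept 19889 genes. All 14 leaf markers, genes of photosynthesis, were present in every library. Their level, summed, lay between 33840 and 49860 CPM (counts scaled to a common library size with TMM factors) in CK, between 66720 and 82100 in Ag+ and between 49920 and 73150 in AgNPs. In each group it was lowest in the library with the most heat shock transcript. Of the 13 root markers, 11 were above 0 in every library, and PLT2 and TIP2;3 were at 0 in Ag+ 1. The sum of the 13 was 1912 to 2074, 2189 to 2810 and 2306 to 3305 CPM, highest in AgNPs 1. Most of it was PYK10, which ran from 1840 CPM in CK 3 to 3200 in AgNPs 1. All root markers but SCR, WOX5 and TIP2;3 were highest in AgNPs 1. Of the 9 seed markers CRU2 was at 0 throughout, and the sum was 0.397 to 1.38, 4.28 to 41.2 and 6.30 to 17.96 CPM. The part of these transcripts in the results below was not tested, and in bulk samples fewer cells of a type and less RNA per cell cannot be told apart.

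The heat shock genes varied widely between libraries of the same group. The 38 genes together stood at 519.7, 491.6 and 1952 CPM in libraries 1 to 3 of CK. They stood at 486.5, 388.3 and 734.5 CPM in those of Ag+ and at 875, 2239 and 2801 CPM in those of AgNPs. CK 3 was thus above every Ag+ library and above AgNPs 1, while CK 1, CK 2, Ag+ 1 and Ag+ 2 lay close together.

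The 34 tested genes were ordered alike in many cases. CK 3 was the highest CK library for 30 of the 34, against 38.6% of all tested genes. Ag+ 3 was the highest Ag+ library for 21, against 30.5% of all genes, and AgNPs 1 was the lowest AgNPs library for 27, against 40.5%. All 3 of these orders held for 18 of the 34 genes and for 9.53% of all tested genes. AgNPs 3 was the highest of all 9 libraries for 23 genes, against 8.09% of all genes, and CK 3 for 5 genes, against 15.8%. Not all genes followed. Ag+ 1 was the highest Ag+ library for 11 genes, against 36.6% of all genes, and Ag+ 3 the lowest for 8, against 35.6%. CK 3 was the lowest CK library for 2, against 39.8%. AgNPs 1 was the highest AgNPs library for 4, against 42.9%, and AgNPs 2 for 3, against 28.4%.

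The distance from the lowest to the highest library of a group had a median of 2.15 on the log2 CPM scale in CK, against 0.45 over all tested genes. It was 1.02 in Ag+, against 0.41, and 1.43 in AgNPs, against 0.37. It exceeded 1, a doubling, for 27, 19 and 20 of the 34 genes in CK, Ag+ and AgNPs, and for 17.1%, 11.3% and 11.9% of all genes. The genes share their libraries, so these counts are not independent observations.

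**Figure D2:**
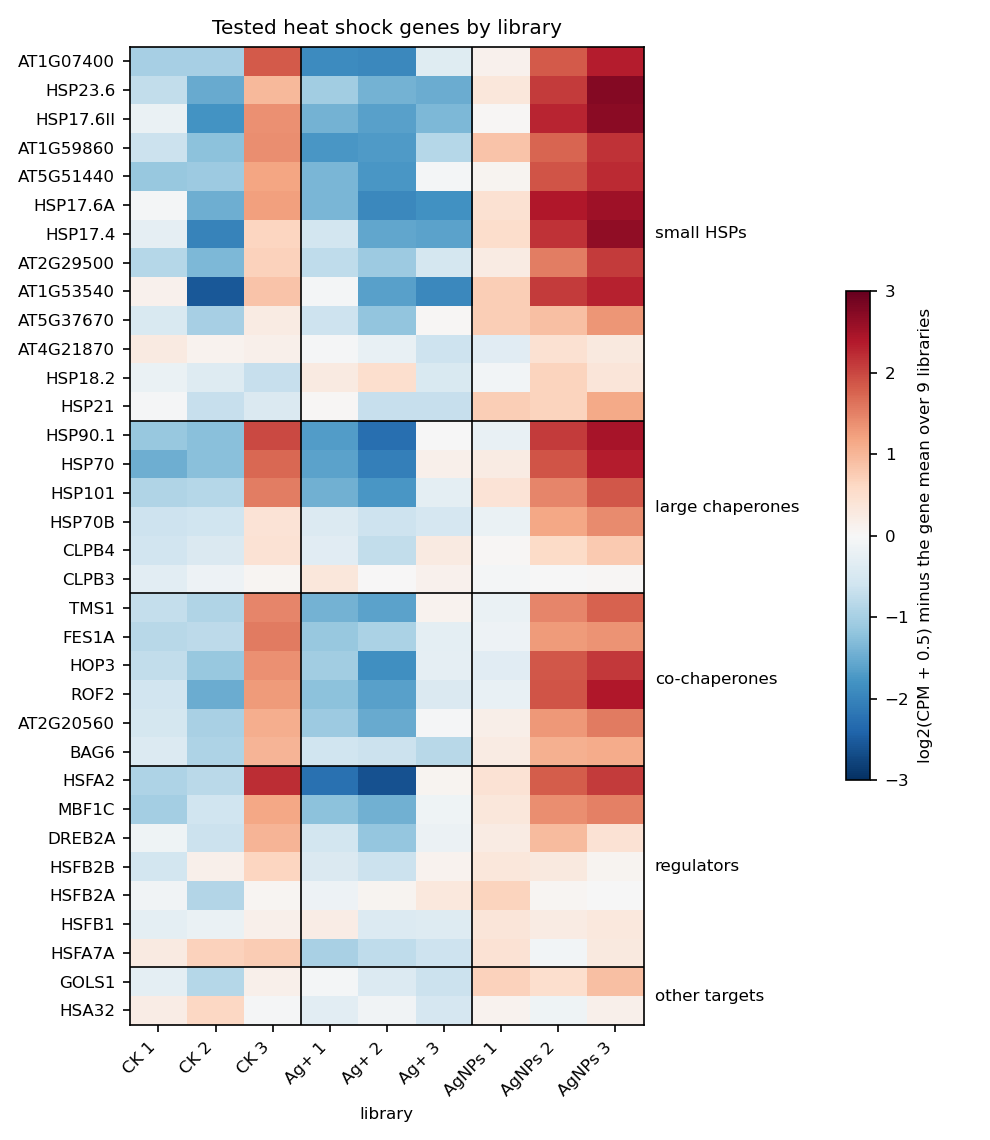
Level of each of the 34 tested heat shock genes (rows, grouped by role) in the 9 libraries (columns), as log2(CPM + 0.5) minus the mean of the gene over the libraries. CK 3, AgNPs 2 and AgNPs 3 are red for most genes, while CK 1, CK 2, Ag+ 1 and Ag+ 2 are mostly blue.

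The comparison of Ag+ against CK asks how silver ions alone changed these genes. HSFA7A was the member called, at an adjusted p under 0.05 from edgeR's quasi-likelihood test with Benjamini-Hochberg adjustment over all genes tested, and it fell. No member was called higher. Over all tested genes 3.52% were called higher and 2.05% lower. DESeq2 and limma voom also called 0 members higher, against 5.16% and 3.31% of all genes. The remaining tested members were not called, although 31 of the 34 fold changes were negative, with a median log2 fold change of -0.99 against -0.01 over all genes. At an unadjusted p under 0.05, 5 members were lower and 1 was higher, where 8.40% and 10.8% of all genes were. The libraries did not overlap for 3 members that were lower (HSFA7A, AT4G21870 and HSA32) and for none that was higher, against 10.7% and 12.7% of all genes. With DESeq2, 2 members were called lower, HSFA7A and HSP17.6A, against 3.55% of all genes, and with limma voom 1, HSFA7A, against 1.71%. Without CK 3 the median over members was -0.05, and without Ag+ 3 it was -1.32, with 14 members lower without overlap against 15.9% of all genes. CK and Ag+ libraries of the same number deviated together from their group means, with correlations of 0.12 to 0.23 over genes. The labels give no pairing, and leaving out CK 3 keeps Ag+ 3 in the fit. Matched by number alone, Ag+ was lower than CK for 25, 23 and 31 of the 34 members in pairs 1 to 3. Of all 19889 tested genes, 9942, 9900 and 9927 were lower in these pairs. Ag+ was lower in all 3 pairs for 19 members (HSP101, HSP70, HSP90.1 and HSFA2 among them), where 21.5% of all genes were. With no pairing in the labels, these counts do not offset the median of -0.05 without CK 3.

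The comparison of AgNPs against CK asks the same of the nanoparticles. No member was called by edgeR in either direction, where 2.23% of all genes were called higher and 1.09% lower. None was called lower by DESeq2 or limma voom, against 2.19% and 1.10%. Of the 34 fold changes 31 were positive, with a median log2 fold change of 1.03 against 0.00 over all genes. At an unadjusted p under 0.05, 9 members were higher and 0 lower, against 9.59% and 7.38% of all genes. The libraries did not overlap for 5 members that were higher (HSP18.2, HSP21, AT5G37670, HSFB1 and GOLS1), against 11.4% of all genes. DESeq2 called 3 higher (GOLS1, HSP23.6 and AT5G37670), against 4.24% of all genes, and limma voom 0, against 2.06%. This comparison depended on CK 3 and, by overlap, on AgNPs 1. Without CK 3 edgeR called 5 members higher, where 2.61% of all genes were called, and the median was 2.19. The libraries then did not overlap for 30 members that were higher, against 18.9% of all genes. Without AgNPs 1 edgeR called 1 member higher, HSP70B, where 2.23% of all genes were called. The libraries then did not overlap for 24 members that were higher, against 19.5% of all genes.

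The comparison of AgNPs against Ag+ sets the 2 forms of silver side by side, and it shares its libraries with the comparisons above. HSFA7A was again the member called, and it was higher in AgNPs, where 0.508% of all genes were called higher and 0.176% lower. Of the 34 fold changes 33 were positive, with a median log2 fold change of 2.06 against -0.01 over all genes. At an unadjusted p under 0.05, 27 members were higher and 0 lower, against 7.92% and 6.90% of all genes. Every AgNPs library lay above every Ag+ library for 24 members, against 10.4% of all genes. The 10 members that overlapped were HSP18.2, AT4G21870, CLPB3, CLPB4, HSP90.1, HOP3, TMS1, HSFB2A, HSFB2B and HSA32. DESeq2 called 12 members higher, against 2.97% of all genes, and limma voom called 0, against 0.161%. Neither called a member lower, against 1.03% and 0.0754%. The edgeR count of members called higher ranged from 0 to 6 when libraries were left out in turn. The 6 came without CK 3, where 1.16% of all genes were called higher. In the fits without an Ag+ library, AgNPs 2 or AgNPs 3, 0 of all genes were called. The 0 there was thus not particular to the members.

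The filter on low counts bears on these counts. Of the 34 tested members 27 passed 0.57 CPM in all 3 libraries of every group, and 5 passed only through AgNPs (HSP17.6II, HSP17.4, AT1G53540, HSP21 and HSP23.6), so that they had to be high in AgNPs to enter the test. Without those 5, the medians were -0.92, 0.96 and 1.88 in the order above. Every AgNPs library then lay above every Ag+ library for 19 of 29 members, against 10.4% of all genes. HSP22.0, AT1G52560, HSFA7B and APX2 did not pass the filter.

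**Figure D3:**
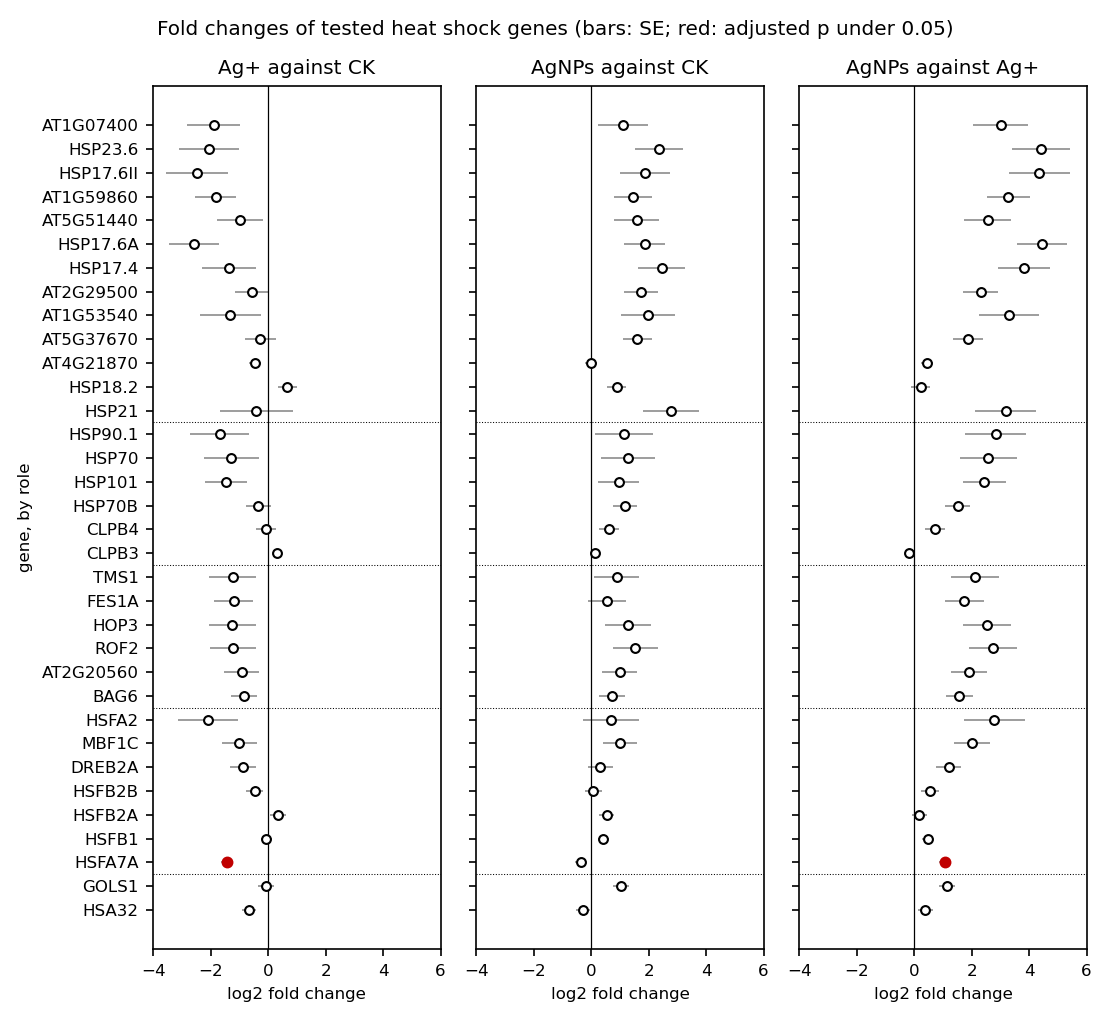
Fitted log2 fold changes of the 34 tested heat shock genes in 3 comparisons, with bars of 1 SE on each side and genes grouped by role. Red marks an adjusted p under 0.05, which HSFA7A alone reached, against CK in Ag+ (-1.44) and against Ag+ in AgNPs (1.07).

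Among the regulators, HSFA7A (AT3G51910), a class A heat shock factor, varied little within groups. It stood at 14.2, 19.2 and 20.3 CPM in libraries 1 to 3 of CK, 5.68, 6.67 and 7.39 of Ag+ and 16.0, 11.0 and 14.5 of AgNPs. All Ag+ libraries lay below all others, and CK and AgNPs overlapped. The fall in Ag+ was 2.71-fold against CK (log2 fold change -1.44 with SE 0.20, edgeR adjusted p = 0.00405), and in AgNPs the level was 2.098-fold that in Ag+ (1.07, SE 0.20, adjusted p = 0.0498). AgNPs against CK gave a log2 fold change of -0.37 (SE 0.19, edgeR adjusted p = 0.377). The difference of AgNPs from Ag+ rests on a margin. It was lost with limma voom (adjusted p = 0.0772) and in 7 of the 9 fits with a library left out, with adjusted p from 0.0530 without AgNPs 1 to 0.180 without AgNPs 3, and kept without CK 1 (0.0324) and without CK 3 (0.0332). In the fits without an Ag+ library, AgNPs 2 or AgNPs 3, 0 of all genes were called in this comparison, so the loss there was not particular to HSFA7A. Its paralogue HSFA7B had 0 to 2 counts in every library.

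HSFA2 (AT2G26150), the heat-induced class A factor that sustains chaperone expression after heat, stood at 6.25, 6.83 and 59.1 CPM in libraries 1 to 3 of CK. It stood at 2.22, 1.61 and 13.1 CPM in those of Ag+ and at 16.9, 45.3 and 54.4 CPM in those of AgNPs. CK 3 was its highest library of all, 9.03 times the mean of CK 1 and CK 2, and Ag+ 3 was 6.83 times the mean of Ag+ 1 and Ag+ 2. The log2 fold change was -2.09 (SE 1.05, edgeR adjusted p = 0.328) for Ag+ against CK, 0.69 (SE 0.97, adjusted p = 0.800) for AgNPs against CK and 2.78 (SE 1.07, adjusted p = 0.270) for AgNPs against Ag+. Without CK 3 the first was -0.23 and the second 2.58.

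HSFB2B (AT4G11660), a class B factor that represses heat shock genes, stood at 7.69, 12.9 and 18.21 CPM in libraries 1 to 3 of CK, 8.42, 7.22 and 12.4 of Ag+ and 14.6, 14.1 and 12.1 of AgNPs. The groups overlapped in every comparison. Its log2 fold changes were -0.47 (SE 0.30) for Ag+ against CK, 0.08 (SE 0.30) for AgNPs against CK and 0.54 (SE 0.30) for AgNPs against Ag+, with edgeR adjusted p of 0.458, 0.939 and 0.433. The second turned to -0.19 without CK 1. The class B factors HSFB1 and HSFB2A ranged from 31.0 to 54.1 and from 8.48 to 25.7 CPM over the 9 libraries, and both were highest in AgNPs 1, where most heat shock genes were low for their group.

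DREB2A (AT5G05410), a drought and heat factor that acts upstream of HSFA3, stood at 11.0, 7.57 and 25.2 CPM in libraries 1 to 3 of CK, 8.09, 5.17 and 10.6 of Ag+ and 14.3, 23.7 and 16.6 of AgNPs. AgNPs lay above Ag+ without overlap, and both overlapped CK. MBF1C (AT3G24500), a transcriptional coactivator needed for tolerance of heat, stood at 12.9, 17.59 and 59.8 CPM in libraries 1 to 3 of CK, 11.2, 9.56 and 24.4 of Ag+ and 33.8, 71.1 and 76.9 of AgNPs. It too separated AgNPs from Ag+, with CK 3 among the AgNPs values. The log2 fold changes of AgNPs against Ag+ were 1.202 for DREB2A (SE 0.44, edgeR adjusted p = 0.258) and 2.01 for MBF1C (SE 0.62, adjusted p = 0.189). Against CK, DREB2A had -0.88 (SE 0.44, edgeR adjusted p = 0.329) in Ag+ and 0.32 (SE 0.43, adjusted p = 0.787) in AgNPs, and MBF1C had -0.999 (SE 0.61, adjusted p = 0.434) and 1.01 (SE 0.60, adjusted p = 0.455). Without CK 3 the Ag+ values were -0.25 for DREB2A and -0.03 for MBF1C.

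Among the large chaperones, HSP101 (AT1G74310), the cytosolic disaggregase required for acquired thermotolerance, stood at 11.7, 12.2 and 66.2 CPM in libraries 1 to 3 of CK. It stood at 7.96, 6.33 and 18.17 CPM in those of Ag+ and at 29.9, 62.7 and 82.8 CPM in those of AgNPs. All AgNPs libraries lay above all Ag+ libraries, and CK 3 fell among the AgNPs values. The log2 fold change was -1.47 (SE 0.73, edgeR adjusted p = 0.324) for Ag+ against CK, 0.96 (SE 0.71, adjusted p = 0.565) for AgNPs against CK and 2.43 (SE 0.75, adjusted p = 0.187) for AgNPs against Ag+. Without CK 3, Ag+ against CK was -0.16 and AgNPs against CK 2.30.

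HSP70 (AT3G12580), a heat-inducible cytosolic member of that family, stood at 48.7, 55.7 and 448 CPM in libraries 1 to 3 of CK, 44.2, 32.1 and 150 of Ag+ and 159, 502 and 685 of AgNPs. HSP90.1 (AT5G52640), the heat-inducible cytosolic HSP90, stood at 47.4, 43.6 and 412 CPM in libraries 1 to 3 of CK, 32.4, 21.3 and 103 of Ag+ and 88.7, 449 and 576 of AgNPs. For both genes CK 3 was close to AgNPs 2, and Ag+ 3 was close to AgNPs 1. Neither was called. HSP70 had log2 fold changes of -1.29 (SE 0.95) in Ag+ and 1.28 (SE 0.95) in AgNPs against CK and 2.57 (SE 0.99) between them, with edgeR adjusted p of 0.536, 0.568 and 0.274. HSP90.1 had -1.69 (SE 1.02), 1.15 (SE 1.00) and 2.83 (SE 1.06), with edgeR adjusted p of 0.430, 0.644 and 0.265. Without CK 3 the Ag+ values turned to 0.51 for HSP70 and 0.18 for HSP90.1.

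The organelle disaggregases differed from each other. CLPB3 (AT5G15450), the chloroplast form, stood at 65.0, 73.8 and 84.7 CPM in libraries 1 to 3 of CK, 103, 82.2 and 88.8 of Ag+ and 78.0, 81.2 and 83.0 of AgNPs. It was the sole large chaperone with a positive log2 fold change in Ag+ against CK (0.30, SE 0.13, edgeR adjusted p = 0.250) and a negative one in AgNPs against Ag+ (-0.18, SE 0.13, adjusted p = 0.554). CLPB4 (AT2G25140), the mitochondrial form, stood at 15.3, 17.02 and 31.7 CPM in libraries 1 to 3 of CK, 18.4, 13.7 and 28.1 of Ag+ and 23.8, 34.9 and 40.1 of AgNPs. Its library 3 was the highest of each group, as for HSP101. The log2 fold changes of CLPB4 were -0.089 (SE 0.34) in Ag+ and 0.63 (SE 0.34) in AgNPs against CK and 0.72 (SE 0.34) between them, with edgeR adjusted p of 0.928, 0.411 and 0.374. HSP70B (AT1G16030), a further inducible HSP70, ranged from 6.56 to 8.92 CPM in CK 1, CK 2, the Ag+ libraries and AgNPs 1, and reached 13.9 in CK 3, 23.7 in AgNPs 2 and 28.5 in AgNPs 3.

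**Figure D4:**
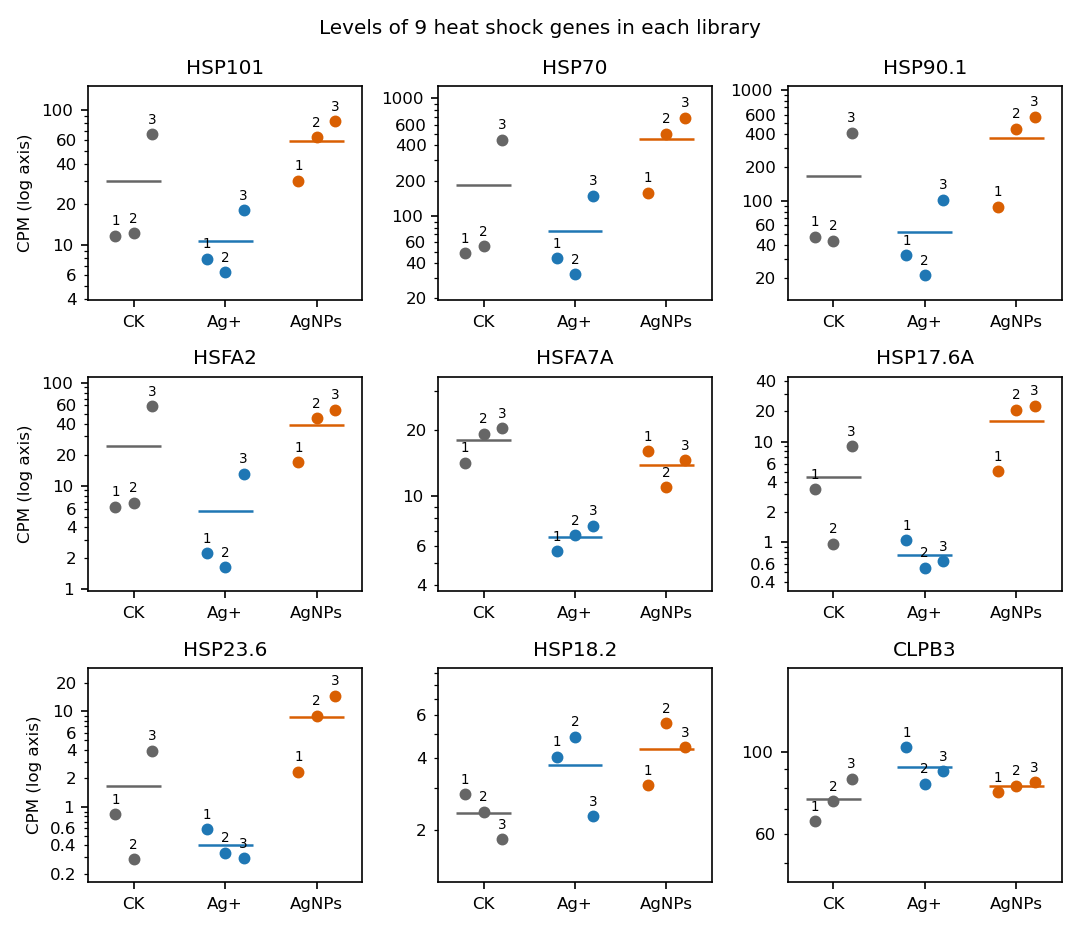
Levels of 9 heat shock genes in each library, in CPM on log axes with their own ranges. Points are libraries with their replicate number and horizontal bars are group means. HSP101, HSP70, HSP90.1 and HSFA2 have library 3 high in CK and in Ag+, HSP17.6A and HSP23.6 have it high in CK but not in Ag+, and HSFA7A is low in all 3 Ag+ libraries.

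Among the small heat shock proteins, HSP17.6A (AT5G12030) had the largest fold change of the 34 tested members between AgNPs and Ag+. It stood at 3.37, 0.967 and 9.003 CPM in libraries 1 to 3 of CK, 1.04, 0.556 and 0.645 of Ag+ and 5.04, 20.8 and 22.8 of AgNPs. Every AgNPs library was above every Ag+ library, and CK overlapped both. AgNPs against Ag+ gave 21.8-fold (log2 fold change 4.44 with SE 0.88, edgeR adjusted p = 0.0608), which was called without CK 2 (adjusted p = 0.0406), without CK 3 (0.0360) and without AgNPs 1 (0.0268). Against CK the log2 fold changes were -2.58 in Ag+ (SE 0.88, edgeR adjusted p = 0.141) and 1.86 in AgNPs (SE 0.72, adjusted p = 0.228).

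HSP23.6 (AT4G25200), a mitochondrial small heat shock protein, stood at 0.844, 0.285 and 3.89 CPM in libraries 1 to 3 of CK, 0.587, 0.333 and 0.293 of Ag+ and 2.34, 9.01 and 14.6 of AgNPs. AgNPs again lay above Ag+ without overlap, but HSP23.6 passed the filter on low counts only through AgNPs. The log2 fold change between them was 4.42 (SE 1.00, edgeR adjusted p = 0.0937), and against CK it was -2.06 in Ag+ (SE 1.04, adjusted p = 0.331) and 2.36 in AgNPs (SE 0.84, adjusted p = 0.192).

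HSP21 (AT4G27670), the chloroplast small heat shock protein, was near the limit of detection. It had 6, 0 and 2 counts in libraries 1 to 3 of CK, 5, 0 and 0 of Ag+ and 14, 16 and 24 of AgNPs, so that all AgNPs libraries were above all others. HSP21 passed the filter on low counts only through AgNPs, so it had to be high there to be tested. Its log2 fold changes were -0.42 (SE 1.28) in Ag+ against CK, 2.77 (SE 0.98) in AgNPs against CK and 3.18 (SE 1.06) in AgNPs against Ag+, with edgeR adjusted p of 0.907, 0.181 and 0.206. The first turned positive, to 0.16 to 0.85, without CK 1, Ag+ 2 or Ag+ 3.

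HSP18.2 (AT5G59720) did not share the pattern. It stood at 2.83, 2.39 and 1.84 CPM in libraries 1 to 3 of CK, 4.05, 4.89 and 2.29 of Ag+ and 3.07, 5.56 and 4.42 of AgNPs. It was lowest in CK 3, and in Ag+ 3 among the Ag+ libraries, where most heat shock genes were highest. The log2 fold changes were 0.67 (SE 0.33) in Ag+ and 0.89 (SE 0.33) in AgNPs against CK and 0.22 (SE 0.33) between them, with edgeR adjusted p of 0.320, 0.202 and 0.786. The last turned to -0.04 without Ag+ 3. It is the sole small heat shock protein tested whose fold change in Ag+ against CK was positive.

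Of the other small heat shock proteins, HSP17.6II, HSP17.4 and AT1G53540 stood at 0.352 to 2.61 CPM in Ag+ and at 2.46 to 18.4 CPM in AgNPs, and AgNPs exceeded Ag+ without overlap for each. All of them passed the filter on low counts only through AgNPs. HSP17.4, a class I small heat shock protein, had 1.94, 0.228 and 4.04 CPM in CK 1 to 3. The HSP20-like chaperones AT1G07400, AT2G29500, AT1G59860 and AT5G51440 also lay higher in AgNPs than in Ag+ without overlap, and AT5G51440 reached 112 CPM in AgNPs 2 and 142 in AgNPs 3 against 8.50 to 28.5 in Ag+. AT5G37670, a further HSP20-like chaperone, stood at 3.26 to 5.17 CPM in AgNPs, above CK (0.626 to 2.20) and above Ag+ (0.50 to 1.82). AT4G21870 varied least of them, from 36.3 to 76.6 CPM, and lay lower in Ag+ than in CK without overlap (log2 fold change -0.45 with SE 0.21, edgeR adjusted p = 0.271). HSP22.0 had 10 counts in CK, 3 in Ag+ and 56 in AgNPs over 3 libraries each, and the ratio of AgNPs to Ag+ was 16.99 (95% interval 5.52 to 84.9, counting error alone). AT1G52560 had 11, 9 and 41 counts, a ratio of 4.15 (1.99 to 9.70). HSP22.0 had 2, 31 and 23 counts in AgNPs 1 to 3, so its ratio came from AgNPs 2 and AgNPs 3. Without AgNPs 1, HSP22.0 passed the filter and was called higher in AgNPs than in Ag+ (log2 fold change 4.37, edgeR adjusted p = 0.0476). It passed through AgNPs 2 and AgNPs 3 alone. It thus had to be high in AgNPs to enter that fit, and the call adds no support.

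In the fit of all 9 libraries edgeR called none of the 6 co-chaperones in any comparison. Over all genes it called 3.52%, 2.23% and 0.508% higher, in the order above, and 2.05%, 1.09% and 0.176% lower. Without CK 3 edgeR called BAG6 higher in AgNPs, against CK (adjusted p = 0.02) and against Ag+ (0.0227). DESeq2 called BAG6 (adjusted p = 0.00836) and ROF2 (0.04) higher against Ag+, where limma voom called 0 members. At an unadjusted p under 0.05, 6 co-chaperones were higher in AgNPs than in Ag+, where 7.92% of all genes were. BAG6 (AT2G46240), a BAG-domain regulator of HSP70, stood at 24.2, 16.8 and 65.8 CPM in libraries 1 to 3 of CK, 21.2, 20.5 and 17.9 of Ag+ and 38.7, 68.5 and 70.3 of AgNPs. FES1A (AT3G09350), which binds HSP70 and protects it from degradation, stood at 17.62, 18.3 and 94.4 CPM in libraries 1 to 3 of CK, 14.3, 16.2 and 26.0 of Ag+ and 28.5, 78.4 and 82.2 of AgNPs. Both were higher in all AgNPs than in all Ag+ libraries, BAG6 was lowest in Ag+ 3 among the Ag+ libraries, and CK 3 was the highest library for FES1A. AgNPs against Ag+ gave log2 fold changes of 1.58 for BAG6 (SE 0.46, edgeR adjusted p = 0.168) and 1.74 for FES1A (SE 0.68, adjusted p = 0.282). Against CK, BAG6 had -0.84 (SE 0.46, edgeR adjusted p = 0.369) in Ag+ and 0.73 (SE 0.45, adjusted p = 0.474) in AgNPs, and FES1A had -1.20 (SE 0.68, adjusted p = 0.389) and 0.54 (SE 0.66, adjusted p = 0.766). Without CK 3 the Ag+ value was -0.07 for BAG6 and turned to 0.05 for FES1A.

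ROF2 (AT5G48570), a peptidyl-prolyl isomerase that binds HSP90, stood at 29.6, 15.5 and 108 CPM in libraries 1 to 3 of CK, 18.8, 14.1 and 32.9 of Ag+ and 37.9, 166 and 239 of AgNPs. AgNPs 1 was thus close to Ag+ 3, and AgNPs 2 and AgNPs 3 exceeded every other library. The log2 fold changes were -1.22 (SE 0.79) in Ag+ and 1.53 (SE 0.79) in AgNPs against CK and 2.75 (SE 0.83) between them, with edgeR adjusted p of 0.469, 0.376 and 0.178. HOP3, which links HSP70 to HSP90, ranged from 4.61 to 79.1 CPM over the 9 libraries. TMS1, a DnaJ protein, ranged from 1.94 to 24.9 CPM and the DnaJ family gene AT2G20560 from 6.0 to 54.2 CPM. All 3 had their highest value in AgNPs 3 and their lowest in Ag+ 2.

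Of the other targets, GOLS1 (AT2G47180), a galactinol synthase that starts the synthesis of raffinose sugars, stood at 4.91, 3.13 and 6.803 CPM in libraries 1 to 3 of CK, 5.81, 4.50 and 3.75 of Ag+ and 10.1, 8.86 and 11.9 of AgNPs. It was higher in every AgNPs library than in any other library, AgNPs 1 included. The log2 fold change was 1.05 against CK (SE 0.28, edgeR adjusted p = 0.0773), with adjusted p of 0.0137 by DESeq2 and of 0.0270 by edgeR without CK 3. It was 1.14 against Ag+ (SE 0.28, edgeR adjusted p = 0.103) and -0.08 in Ag+ against CK (SE 0.28, adjusted p = 0.916), the last turning to 0.19 without CK 3 and to 0.05 without Ag+ 3.

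HSA32 (AT4G21320), a protein that prolongs acquired thermotolerance, stood at 3.82, 5.12 and 3.07 CPM in libraries 1 to 3 of CK, 2.48, 2.94 and 2.11 of Ag+ and 3.44, 2.85 and 3.57 of AgNPs. Ag+ lay below CK without overlap (log2 fold change -0.67 with SE 0.25, edgeR adjusted p = 0.178), and AgNPs overlapped both, at -0.28 against CK (SE 0.25, adjusted p = 0.644) and 0.39 against Ag+ (SE 0.25, adjusted p = 0.517). APX2 (AT3G09640), a cytosolic ascorbate peroxidase strongly induced by heat and excess light, was at or near 0, with 0, 0 and 2 counts in libraries 1 to 3 of CK, 0, 1 and 0 of Ag+ and 0, 2 and 4 of AgNPs. Even AgNPs 3, the library with the highest sum over the heat shock genes, held just those 4.

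Levels can be compared between genes per kilobase of exon. On the scale of mean CPM per kilobase in AgNPs, HSP70 stood at 177.9, HSP90.1 at 176.6, AT5G51440 at 85.3, ROF2 at 66.7, HSP101 at 17.39, HSP23.6 at 8.25 and HSP21 at 0.993. In CK the same order held for these genes except that HSP90.1, at 79.7, was above HSP70, at 73.1. In Ag+ they ran from 29.9 for HSP70 to 0.111 for HSP21. Both genes were measured in the same libraries, and a difference between HSP70 and HSP90.1 was not tested. The scale rests on annotated exon lengths, 2520 bases for HSP70 and 2103 for HSP90.1.

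More of the heat shock genes were raised in CK 3 than in Ag+ 3. In CK 3 the level was over 2 times the mean of CK 1 and CK 2 for 23 of 34 genes, against 4.86% of all tested genes. In Ag+ 3 it was over 2 times the mean of Ag+ 1 and Ag+ 2 for 13 of 34 genes, against 2.36%, and all 13 were among the 23. AgNPs 2 and AgNPs 3 averaged over 2 times AgNPs 1 for 20 genes, against 3.19%.

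By role, the median ratio in CK 3 was 3.74 for small heat shock proteins, 3.81 for large chaperones, 4.97 for co-chaperones and 1.77 for regulators. In Ag+ 3 it was 0.806, 2.15, 2.13 and 1.58 in the same order. Of the 13 small heat shock proteins tested 7 were lower in Ag+ 3 than in the mean of Ag+ 1 and Ag+ 2, and 4 were over 2 times it (AT1G07400, AT1G59860, AT5G51440 and AT5G37670). HSP23.6 had a ratio of 6.89 in CK 3 and of 0.637 in Ag+ 3, HSP17.4 had 3.74 and 0.469, and AT1G53540 had 3.46 and 0.222. In Ag+ 3 these genes had 5, 8 and 6 counts, and they are among those that passed the filter only through AgNPs. HSFA2 had 9.03 and 6.83, HSP70 8.58 and 3.93 and HSP90.1 9.06 and 3.82. HSFA2 and the large chaperones HSP70 and HSP90.1 were thus high in Ag+ 3 while HSP17.6A, HSP17.4 and HSP23.6 were at 0.293 to 0.645 CPM. These are ratios of single libraries, with no replicate.

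**Figure D5:**
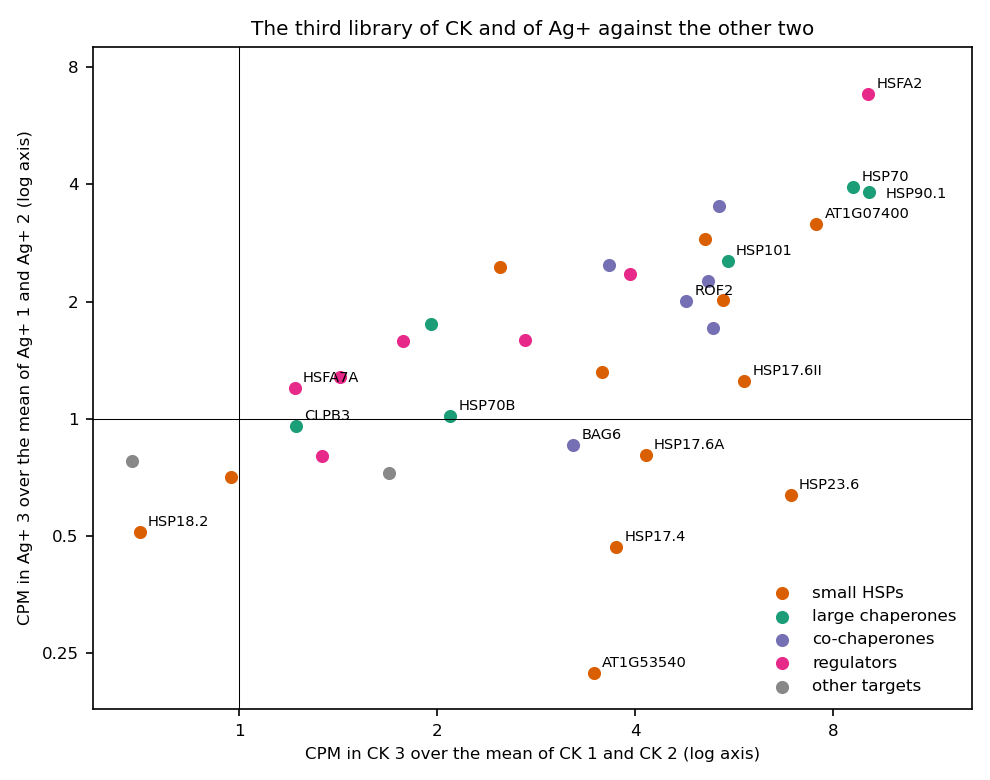
Level in CK 3 over the mean of CK 1 and CK 2 (horizontal, log axis) against the level in Ag+ 3 over the mean of Ag+ 1 and Ag+ 2 (vertical, log axis) for 33 of the 34 tested genes, coloured by role. HSP21 is left out because it had 0 counts in Ag+ 3. HSFA2, HSP70 and HSP90.1 lie at the upper right, whereas HSP17.6A, HSP17.4, HSP23.6 and AT1G53540 lie right of 1 and below 1.

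The wider pathway was given by 47 further genes, of which 44 were tested. In Ag+ against CK edgeR called 1 of them lower, HSFB4, and 0 higher, against 2.05% and 3.52% of all genes. At an unadjusted p under 0.05, 2 were lower (HSFB4 and HSFA1E) and 0 higher, against 8.40% and 10.8%. DESeq2 called 0 higher, against 5.16%. In AgNPs against CK edgeR called 1 lower, CPN60B, and 0 higher, against 1.09% and 2.23% of all genes. At an unadjusted p under 0.05, 1 was higher and 5 were lower, against 9.59% and 7.38%. DESeq2 called 1 higher and 2 lower, against 4.24% and 2.19%. In AgNPs against Ag+ edgeR called 0 higher and 0 lower, against 0.508% and 0.176% of all genes. At an unadjusted p under 0.05, 4 were higher and 2 lower, against 7.92% and 6.90%. DESeq2 called 3 higher and 0 lower, against 2.97% and 1.03%. Limma voom called 0, against 0.161% higher and 0.0754% lower. HSFB4 (AT1G46264), a class B factor known from roots, lay between 14.4 and 16.4 CPM in CK, 9.67 and 10.6 in Ag+ and 9.72 and 12.0 in AgNPs. Its log2 fold change in Ag+ was -0.59 (SE 0.13, edgeR adjusted p = 0.0324), and the call was lost with the 6 libraries compared alone (adjusted p = 0.0602). It was also lost when libraries were left out, at least without CK 1. There 0 of the other pathway genes were called lower, against 1.15% of all genes. CPN60B (AT1G55490), a chloroplast chaperonin, stood at 214, 224 and 216 CPM in libraries 1 to 3 of CK, 191, 193 and 184 of Ag+ and 142, 170 and 164 of AgNPs (AgNPs against CK -0.46, SE 0.10, edgeR adjusted p = 0.0452). That call was lost in each fit with a library left out.

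Of the 16 other heat shock factor genes 13 were tested, with median log2 fold changes of -0.23 in Ag+ against CK, -0.03 in AgNPs against CK and 0.01 in AgNPs against Ag+. HSFA1A, a master activator of the response, ranged between 5.69 and 7.15 CPM in CK, between 5.35 and 6.16 in Ag+ and between 4.12 and 8.79 in AgNPs. HSFA3, which is induced through DREB2A, was lowest in CK 3 (15.1 CPM against 28.9 and 28.7), in Ag+ 3 (13.5 against 20.8 and 21.9) and in AgNPs 2 and AgNPs 3 (11.2 and 11.8 against 21.2). It thus ran opposite to most of the heat shock genes within each group, and none of its comparisons was called (edgeR adjusted p of 0.620, 0.307 and 0.648).

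The 11 other cytosolic chaperones were not called by edgeR in any comparison. At an unadjusted p under 0.05, 1 was higher in AgNPs against Ag+, where 7.92% of all genes were. All 11 fold changes were negative in Ag+ against CK (median -0.43) and 11 were positive in AgNPs against Ag+ (median 0.58). The median was 0.00 in AgNPs against CK. The constitutive HSC70-1 stood at 2140, 2500 and 4220 CPM in libraries 1 to 3 of CK, 1910, 1700 and 3120 of Ag+ and 2130, 2910 and 3350 of AgNPs. HSP90.2 stood at 363, 411 and 1500 CPM in libraries 1 to 3 of CK, 323, 297 and 758 of Ag+ and 436, 818 and 945 of AgNPs. Both had CK 3 as their highest library of all 9, in contrast to HSP70 and HSP90.1, which were highest in AgNPs 3. Of the 10 organelle chaperones, HSP90.5 of the chloroplast ranged from 227 to 327 CPM over all libraries.

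The 10 genes of endoplasmic reticulum stress had medians of -0.32, 0.29 and 0.60 in the order Ag+ against CK, AgNPs against CK and AgNPs against Ag+, and all 10 had the same sign within each comparison. None was called by edgeR. At an unadjusted p under 0.05, 1 was higher in AgNPs against CK, where 9.59% of all genes were. In AgNPs against Ag+ 2 were higher, where 7.92% of all genes were. BIP3 (AT1G09080), the stress-induced luminal HSP70, stood at 1.09, 0.114 and 0.921 CPM in libraries 1 to 3 of CK, 0.261, 0.278 and 0.234 of Ag+ and 1.11, 3.44 and 7.14 of AgNPs. All AgNPs libraries exceeded all others (AgNPs against Ag+ log2 fold change 3.89 with SE 0.85, edgeR adjusted p = 0.0803).

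The genes most like the heat shock genes were sought outside the list by the difference of their log2 CPM, centred within each group, from the median profile of the 34 tested members over the 9 libraries. The root mean square difference was smallest for GPRI1 (AT2G20570, 0.137), DIC3 (AT5G09470, 0.144), MTHSC70-2 (0.154), ProT3 (0.167) and AT4G09500 (0.187), followed by AT2G36970, AT5G12110, LOG5, ASY2 and BIP2 (0.207). The median profile itself had a root mean square of 0.654. The members ranged from 0.126 for AT2G29500 to 1.16 for AT1G53540. Of all tested genes outside the list, 1161 were closer to the profile than the median member was. That count did not apply the limit on a gene's own deviation, which left 4903 genes eligible, so some of the 1161 may vary little. Many genes outside the list thus came as close to the profile as members did. GPRI1 stood at 35.0, 26.3 and 105 CPM in libraries 1 to 3 of CK, 65.9, 58.4 and 118 of Ag+ and 42.4, 100.2 and 98.4 of AgNPs, and its level in Ag+ was higher than in CK, unlike that of most heat shock genes.

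None of the 38 genes shared a stretch of 100 exon bases with any other place in the genome. On the annotation 11 of them overlap other genes (HSP17.4, HSP101, CLPB3, FES1A, HOP3, TMS1, HSFB2B, DREB2A, MBF1C, HSA32 and GOLS1), and since the strand setting of the counting is not given in the sources used here, their reads cannot be told apart from those of the partner.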

How the data were processed

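The authors deposited whole-number counts for each gene and library (9 libraries), without normalization. Per the labels' protocols, total RNA was depleted of ribosomal RNA and read in pairs of 150 bp on 1 lane. The submitters' processing notes name HISAT2 and the build TAIR10. How reads were counted, with which strand setting and annotation, is not given in the sources used here. Coordinates are absent from the table, and those printed are of TAIR10.1. The members and all gene lists were chosen with earlier results of these data known. Counts of all 9 libraries were fitted together with edgeR 4.0.16 (R 4.3.3, robust quasi-likelihood, group as the only term, filterByExpr, TMM), with two-sided p adjusted by Benjamini-Hochberg over 19889 genes and an SE equal to the log2 fold change over the root of F. The biological coefficient of variation was 22.5%. Of 38202 rows, 11452 were at 0. Replicate pairs differed by a chi-square of 8.99 to 64.2 per degree of freedom, and each library was counted as 1 sample. Named in full were members called in any comparison and examples of each role, other pathway genes called and 6 examples, and the 10 most similar genes among those whose own deviation was at least 50% of that of the median profile. DESeq2 1.42.0, limma voom 3.58.1, other scalings and filters, a replicate block and leaving out each library were tried. Deviations from the group means correlated over genes at 0.12 to 0.23 in the 3 pairs of CK and Ag+ libraries of the same number. They did not in such pairs with AgNPs (-0.21 to 0.12, 1 of 6 above 0.1). Pairs of unlike number ran from -0.26 to 0.29, highest for Ag+ 2 with AgNPs 1. The labels give no pairing, and 3 libraries per group are too few to settle one. The test was checked on simulated data. Intervals on low counts are exact binomial and cover counting error alone.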

Additional observations from a re-analysis of the deposited data

Results flagged for a closer look

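The effect of AgNPs on HSFA7A differed from the effect of Ag+ by 1.07 on the log2 scale (both against CK, tested as AgNPs against Ag+, SE 0.20, edgeR adjusted p = 0.0498). Over the alternatives the adjusted p ranged from 0.000365 with DESeq2 to 0.180 without AgNPs 3. Every AgNPs library was above every Ag+ library.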

How the results depend on the processing

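Of 910 alternative values of the 57 named gene comparisons, 847 kept direction and side of the threshold, 28 lost and 25 gained a call, and 10 changed sign. The sign changes came from leaving out a library. In Ag+ against CK, HSP70 ran from -2.27 to 0.51, HSP90.1 from -2.64 to 0.18, FES1A from -1.58 to 0.052 and GOLS1 from -0.34 to 0.19, each highest without CK 3. GOLS1 was also positive without Ag+ 3 (0.055). HSP21 ran from -4.41 to 0.85 and was positive without CK 1, Ag+ 2 (0.19) or Ag+ 3 (0.16). HSP18.2 in AgNPs against Ag+ ran from -0.037 (without Ag+ 3) to 0.46, and HSFB2B in AgNPs against CK from -0.19 (without CK 1) to 0.42. The fall of HSFA7A in Ag+ was called under every alternative run (adjusted p 4.51e-08 to 0.0235).

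Counts of calls depended on the tool. DESeq2 called 2 members lower in Ag+, 3 higher in AgNPs against CK and 12 against Ag+, limma voom 0 and the 6 libraries compared alone 8 in the last. Over all genes edgeR called 701 higher and 407 lower in Ag+ against CK, 444 and 216 in AgNPs against CK, and 101 and 35 in AgNPs against Ag+. DESeq2 called 1117 and 768, 940 and 485, and 628 and 217. The 6 libraries alone gave 224 and 127 in AgNPs against CK and 341 and 67 in AgNPs against Ag+, and limma voom 32 and 15 in the last. Of the other pathway genes, the lower call in Ag+ went to 0 with 6 libraries and that in AgNPs to 0 with 6 libraries or no filter and to 2 with DESeq2, while DESeq2 called 1 higher in AgNPs against CK and 3 against Ag+, as did the 6 libraries (3). Upper-quartile scaling gave 1 member lower without overlap in AgNPs against Ag+. With the 250 bases before the start alone, 3-unit matches were in 7 of the 38 windows (18.4%) and 0.386% of all windows, and 2-unit matches in 18 (47.4%) and 16.1%. The cause of these shifts was not tested.

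With the replicate block, the numbers of members and other pathway genes called in Ag+ against CK did not change, and HSFA7A stayed called (-1.44, edgeR adjusted p = 0.00591). The labels pair no libraries by number, and those of AgNPs did not correlate with the others by number. In AgNPs the block gave 1 member called higher against CK and 6 against Ag+. It gave 0 pathway genes lower in AgNPs against CK and 1 higher against Ag+. Of all genes, 189 were then called higher in AgNPs against Ag+.

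Leaving out each library in turn gave 0 to 5 members called higher in AgNPs against CK and 0 to 6 against Ag+. Over all genes it gave 294 to 844 higher and 125 to 591 lower in Ag+ against CK, 157 to 526 and 67 to 283 in AgNPs against CK, and 0 to 313 and 0 to 131 in AgNPs against Ag+. Other pathway genes ranged from 0 to 1 lower in Ag+, 0 to 1 higher and 0 to 0 lower in AgNPs against CK, and 0 to 2 higher against Ag+. The medians over members ran from -1.32 to -0.049, 0.72 to 2.19 and 1.77 to 2.52. Members without overlap ran from 0 to 1 higher and 3 to 14 lower in Ag+ against CK, 5 to 30 and 0 to 1 in AgNPs against CK, and 24 to 29 and 0 to 1 in AgNPs against Ag+. With 1 library fewer, libraries did not overlap for more of all genes too, 12.4% to 23.2% in each direction of these fits. AT1G52560, HSFA7B, APX2 and HSP22.0 did not pass the low-count filter with all 9 libraries.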
